A study of Oryza sativa Japonica Group with 27 samples.

Results

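One library of rice shoot RNA made with the ligase Circligase was set against the 7 other untreated libraries that were not purified on streptavidin. These 8 libraries, chosen by treatment, purification and ligation method as the labels give them, are 8 of the 14 libraries of a Structure-seq2 series, which holds 27 readings with 2 sequencing primers. All 8 came from shoots of 14-day-old plants of the japonica cultivar Nipponbare, and none was treated with dimethyl sulfate (DMS). RNA was poly(A)-selected and reverse transcribed with SuperScript III, and cDNA and ligated products were purified on polyacrylamide gels (PAGE).

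Each of the 8 libraries is named by the step that sets it apart. The standard protocol, with 2 libraries, used denaturation at 90 °C with salt, reverse transcription at 55 °C, T4 DNA ligase, Q5 polymerase and a last purification by PAGE. Circligase was 1 library and differed from the standard protocol in the ligation method alone. Biotin only (biotin added, PAGE kept), Ex Taq (another PCR enzyme), low RT denaturation (65 °C without salt), low RT reaction (50 °C) and agarose (a last purification on agarose) were 1 library each and kept T4 DNA ligase. No label says that the libraries came from separate plants, so their spread can be technical. With 1 Circligase library, a property of the ligase and a property of that library cannot be told apart.

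Structure-seq2 probes how RNA folds inside the plant. DMS methylates unpaired adenine and cytosine, the reverse transcriptase halts there, and the end of the cDNA is then joined to an adapter and sequenced. In libraries without DMS, the stops are those that the enzyme makes on unmodified RNA, and these libraries serve as the background. The ligation decides which cDNA ends reach the sequencer. T4 DNA ligase seals a hairpin adapter onto the cDNA by base pairing, whereas Circligase joins single-stranded DNA ends without a template and is known to favour some terminal bases over others. The deposited tables count reads per transcript and hold no stops per base, so the comparison is of levels per locus and not of ligated ends.

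Total counts in the 8 libraries ran from 50816 (agarose) to 285714 (Ex Taq), with 164907 for Circligase. A count of 1 was worth 6.65 CPM in Circligase and 3.62 to 14.1 CPM in the others (CPM is the count per 1000000 counts of the library, its total scaled by the TMM factor). Counts of all transcripts of a locus were summed, and 5273 of 35679 loci were tested, those that reached 10 counts in 2 or more of the 8 libraries. Loci are given by the deposited identifiers without the transcript suffix. The reference table at hand paired 1 of the 35679 loci with a symbol, so no gene names or roles are given, and the shoot label was not checked against marker genes.

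The Circligase library held fewer loci at equal depth than any of the 7 others, and more of its counts lay in the most abundant loci. Thinned to 50816 counts, Circligase showed 8492 loci with a count. The standard libraries showed 9889 and 9740, biotin only 9527, Ex Taq 9906, low RT denaturation 9559, low RT reaction 9516 and agarose 9472. Circligase thus lay below the 7 others, which were close to each other. The smallest two-sided exact permutation p that 1 library against 7 allows is 0.25, so no single measure can pass a threshold of 0.05.

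The 10 most abundant loci took 14.2% of the counts in Circligase and 9.46% to 10.7% in the 7 others. The 100 most abundant took 38.5% in Circligase and 28.0% to 31.4% in the others. The most abundant locus alone took 3.24% in Circligase and 1.92% to 2.45% elsewhere. The 10 loci that led in Circligase were largely those that led in the other libraries, with 6 to 8 of the 10 among the top 10 of each. They took 8.63% to 9.83% of the counts there. Circligase lay above all 7 libraries on 6 of the 10, a position that choosing its own top loci favours. Counted in the same way on its own 10 top loci, low RT reaction lay above all others on 4, biotin only on 3, low RT denaturation on 2, Ex Taq and standard replicate 2 on 1 each, and standard replicate 1 and agarose on 0.

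**Figure D1:**
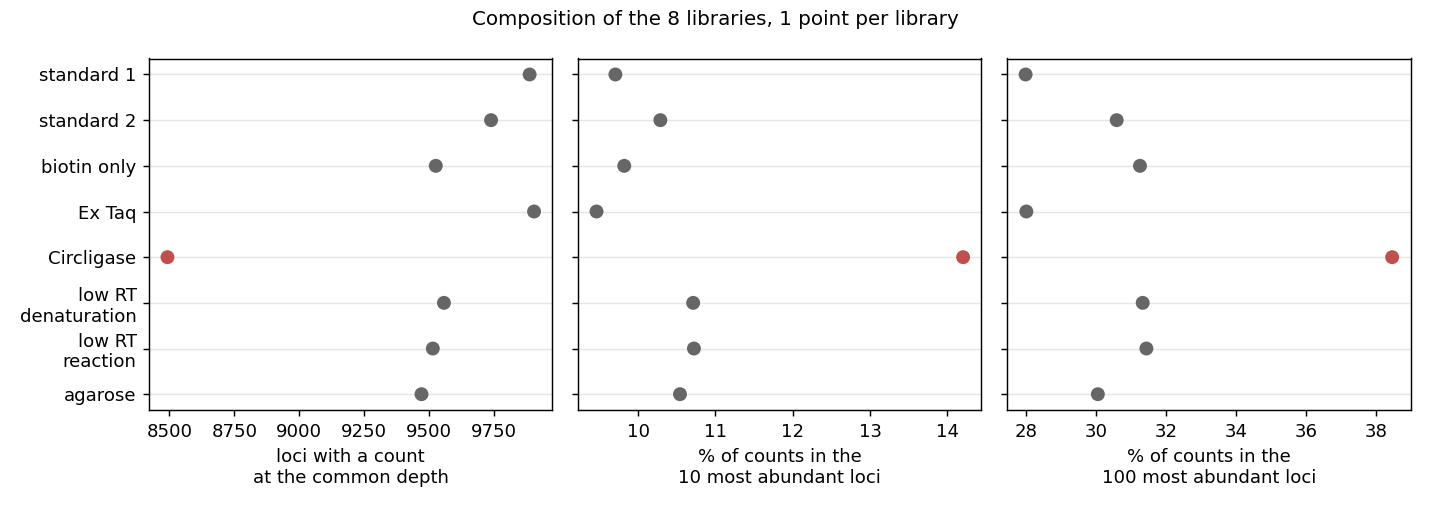
Number of loci with a count after thinning to 50816 counts (left), and percent of counts in the 10 (middle) and 100 (right) most abundant loci, 1 point per library and Circligase in red; the horizontal axes do not start at 0. Circligase, at 8492 loci, 14.2% and 38.5%, lies apart from the 7 others in each panel.

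Some loci were at 0 in Circligase and counted in every other library. There were 466 loci with no count in Circligase and at least 1 in each of the 7 others. The same number was 1951 for the shallow agarose library, 413 for standard replicate 1 and 48 to 160 for the other 5. Thinned to the same depth, it was 320 for Circligase and 151 to 245 for the 7 others, so Circligase was highest at equal depth. The reverse, loci with a count in 1 library alone, numbered 427 for Circligase and 527 to 686 for the others after thinning.

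Circligase lay outside the range of all 7 libraries on 1732 of the 5273 loci tested (32.8%), above it on 803 (15.2%) and below it on 929 (17.6%). With 8 libraries, any library lies outside on many loci, so the same count was made for each of the 7 against the rest. Standard replicate 2 was outside on the fewest, 629 loci (11.9%), 454 above (8.61%) and 175 below (3.32%). Biotin only was outside on 1005 (19.1%), with 769 above (14.6%) and 236 below (4.48%), and low RT denaturation on 1023 (19.4%), with 692 above (13.1%) and 331 below (6.28%). These 3 lay above the rest more often than below, whereas standard replicate 1, outside on 1058 (20.1%), had 424 above (8.04%) and 634 below (12%). Low RT reaction was outside on 1344 (25.5%), with 845 above (16%) and 499 below (9.46%). Ex Taq was outside on 1467 (27.8%), with 1010 above (19.2%) and 457 below (8.67%). Agarose, the shallowest library, exceeded Circligase with 2106 (39.9%), of which 276 lay above (5.23%) and 1830 below (34.7%).

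At equal depth Circligase stood outside more often than any of the 7. After all 8 libraries were thinned to 50816 counts, 1249 loci passed the same filter, and Circligase was outside the range on 483 (38.7%), 259 above (20.7%) and 224 below (17.9%). Ex Taq followed with 401 (32.1%), which were 14.9% of loci above and 17.2% below, and low RT reaction with 346 (27.7%), 14.2% above and 13.5% below. Agarose, now at no disadvantage in depth, was outside on 292 (23.4%), 8.73% above and 14.7% below. Standard replicate 1 was outside on 280 (22.4%), 11.1% above and 11.3% below. Biotin only was outside on 246 (19.7%), 12.7% above and 7.05% below, and low RT denaturation on 243 (19.5%), 9.69% above and 9.77% below. Standard replicate 2 was again last with 183 (14.7%), 8.01% above and 6.65% below. Without the agarose library, and thinned to 124680 counts, Circligase was outside on 1212 of 3016 loci and the highest of the others on 1044. The step from Ex Taq to Circligase was thus smaller than the step from standard replicate 2 to Ex Taq.

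**Figure D2:**
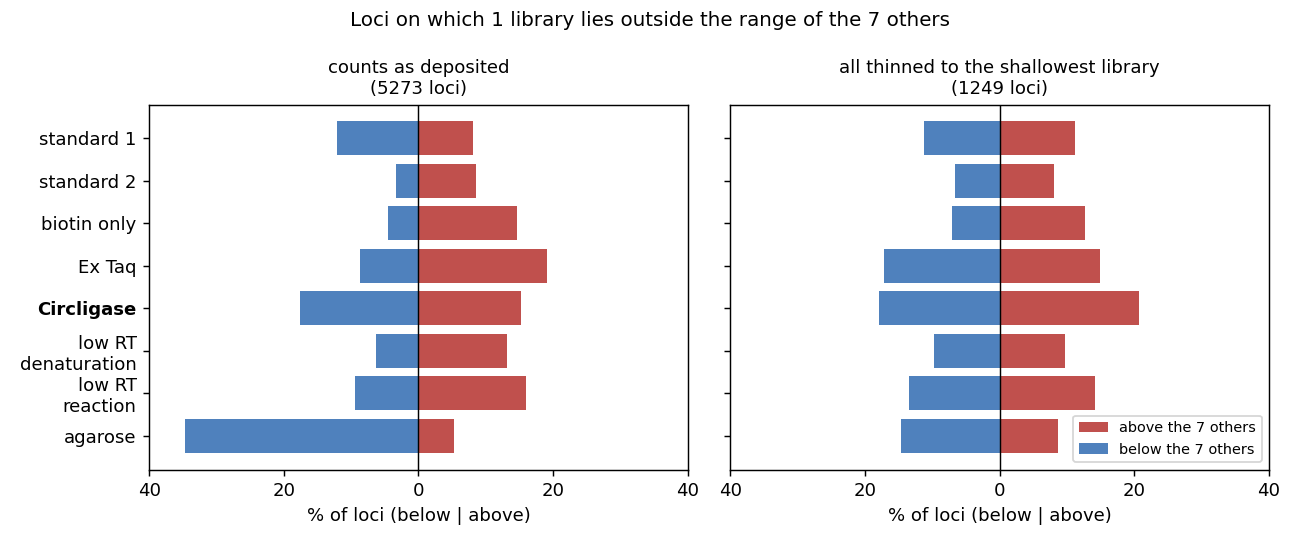
Percent of loci on which each library lies above (red) or below (blue) all 7 others, for the counts as deposited (left, 5273 loci) and thinned to 50816 counts (right, 1249 loci). Agarose has the longest bar as deposited (39.9%) and Circligase (38.7%) at equal depth.

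With a margin of 2-fold, Circligase led on the upper side and at equal depth, and agarose led on the lower side as deposited. On the CPM + 10 scale, Circligase was at least 2-fold above the highest of the 7 on 76 loci (1.44%) and at least 2-fold below the lowest on 162 (3.07%). On the upper side the 7 others reached at most 26 loci, in low RT reaction (0.493%). The rest of that side was 19 in biotin only (0.36%), 10 in Ex Taq (0.19%), 8 in standard replicate 1 (0.152%), 4 each in low RT denaturation and agarose (0.0759%) and 0 in standard replicate 2. On the lower side agarose had 583 (11.1%), more than Circligase, and standard replicate 1 had 94 (1.78%). Low RT reaction had 46 (0.872%), low RT denaturation 34 (0.645%), Ex Taq 21 (0.398%), standard replicate 2 had 13 (0.247%) and biotin only 9 (0.171%). Thinned to equal depth, Circligase passed the margin on 88 loci (7.05%), 29 above and 59 below. Agarose passed it on 39 (3.12%), low RT reaction on 30 (2.4%), Ex Taq on 25 (2%), low RT denaturation on 24 (1.92%), biotin only on 22 (1.76%), standard replicate 1 on 20 (1.6%) and standard replicate 2 on 15 (1.2%). Loci above the range exceeded the next library by a median of 1.25-fold in Circligase and of 1.11- to 1.21-fold in the others, on the CPM + 10 scale as deposited. On the lower side the median was 1.34-fold in Circligase, 1.58-fold in agarose, 1.28-fold in standard replicate 1 and 1.15- to 1.25-fold in the other 5.

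Whether more of the loci lay above or below depended on the scaling. Of the Circligase loci outside the range, 46.4% lay above under TMM scaling, 55.5% under RLE scaling, and 36.5% where libraries were scaled by their totals. The median log2 change of all loci tested, Circligase minus the 7 others, was -0.25, -0.12 and -0.36 under these scalings. The 929 loci below and 803 above therefore show no direction for the library as a whole. Agarose had more loci below than above in each scaling, but the excess varied. It had 519 above and 1491 below under RLE, and 913 and 1152 with totals.

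The share of loci outside the range was higher at high than at low abundance in Circligase and in 4 of the 7 others, and lower in the standard libraries and low RT denaturation. Among the 1984 loci with a mean under 50 CPM over the 8 libraries, Circligase was outside on 29.2%, standard replicate 1 on 20.3% and standard replicate 2 on 13.6%. Among the 244 loci at 500 CPM and over, these shares were 41.8%, 8.20% and 5.33%. Between the same classes the share went from 40.7% to 50.8% in agarose, from 24.0% to 32.4% in low RT reaction, from 18.7% to 23.0% in biotin only, from 24.4% to 26.2% in Ex Taq and from 21.2% to 12.3% in low RT denaturation. There Circligase lay above all 7 on 28.3% of loci and below on 13.5%, and low RT reaction, the next highest on the upper side, lay above on 23.4%. Agarose lay below all others on 50.4% of these abundant loci, and its TMM factor of 1.39 was the highest of the 8. The mean that ranks the loci includes Circligase itself, which moves loci that are high in it towards the upper classes.

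**Figure D3:**
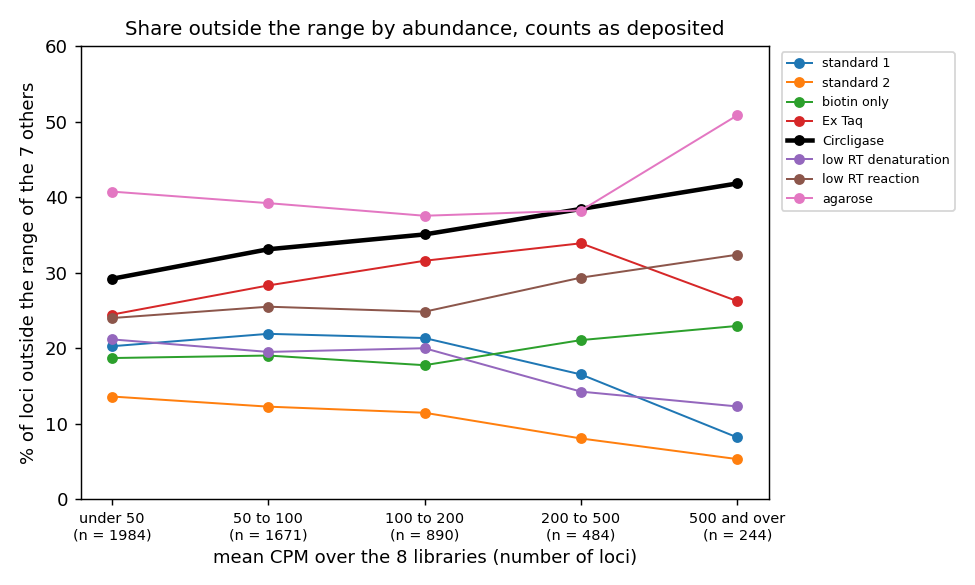
Percent of loci outside the range of the 7 others, by mean CPM over the 8 libraries, 1 line per library and Circligase in black. Circligase rises from 29.2% to 41.8%, agarose from 40.7% to 50.8% and low RT reaction from 24.0% to 32.4%, while standard replicate 2 falls from 13.6% to 5.33%.

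In the edgeR quasi-likelihood test of Circligase against the 7 others, 5 loci were called higher (0.0948% of 5273, adjusted p at most 0.05) and 0 were called lower. All 5 lay above the range of the 7, a position that rests on the same values and adds no separate support. In simulated counts, the test recovered 69.4% of loci set 8-fold higher in Circligase and 11.6% of those set 8-fold lower. For 4-fold changes it recovered 20% and 6.52%. The simulation held 4583 loci, with 43 to 49 changed in each class, and also gave 3 false calls. In that setting the test could call few lower loci, so the 5 and 0 calls give no direction. The fit takes the spread from the 7 libraries, which are of 6 kinds, and assumes that the lone library varies like them. Each of the 7 set against the rest in the same way, with Circligase among the rest, gave 0 calls. They had 94 to 590 loci at an unadjusted p under 0.05, the 590 in agarose, the shallowest library. Circligase had 548, 194 higher and 354 lower. At equal depth Circligase had more such loci than any of the 7 others, and was again the only library with calls. Among the 7 libraries alone, standard replicate 2 gave 18 calls, all lower, and the 6 others 0. A library other than Circligase can thus give more than 5 calls. DESeq2 called 46 loci for Circligase, 30 higher and 16 lower, and 1 for the highest of the 7. The number of edgeR calls changed when 1 of the 7 was left out, for reasons that were not tested. It was 1 without standard replicate 1, without Ex Taq or without low RT reaction, 2 without low RT denaturation or without agarose, 7 without biotin only and 29 without standard replicate 2, of which 12 were higher and 17 lower.

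**Figure D4:**
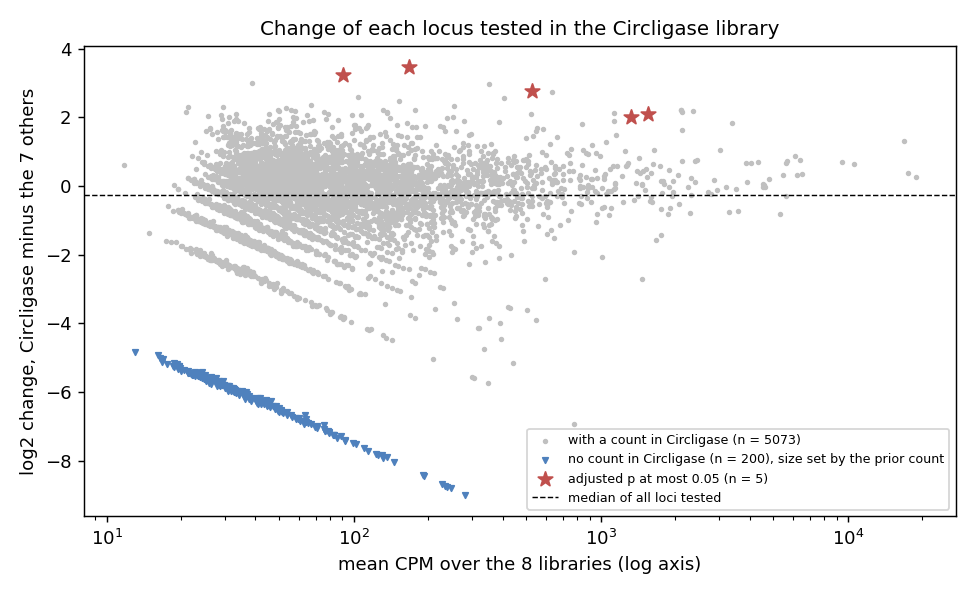
Log2 change of each of the 5273 loci tested, Circligase minus the 7 others, against the mean CPM over the 8 libraries on a log axis. The 5 loci called (stars) lie at the upper edge, and the 200 loci with no count in Circligase (blue) form a band whose size is set by the prior count.

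The 5 loci called are given in order of their change. The first pair follows from the naming rule, and the other 3 are named because the count is small. OS03T0425800, listed with 1 transcript, had 123 counts in Circligase and 7, 28, 21, 20, 15, 10 and 6 in standard replicates 1 and 2, biotin only, Ex Taq, low RT denaturation, low RT reaction and agarose. That is 817.6 CPM in Circligase against 73.8 ± 19.3 CPM (SD, n = 7), and 7.77 times the highest of the 7. The log2 change was 3.45 (SE 0.407, edgeR adjusted p = 0.00151). The 7 libraries lay close together, between 49.6 and 105.3 CPM, far from the Circligase value. This locus was also called in each fit that left out 1 of the 7, with adjusted p from 0.00134 to 0.00504.

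OS01T0316800, listed with 1 transcript, had 64 counts in Circligase and 3, 22, 21, 7, 8, 4 and 2 in the 7 others in the same order. Circligase stood at 425.4 CPM and the 7 at 42.5 ± 27.7 CPM (SD, n = 7). The log2 change was 3.23 (SE 0.569, edgeR adjusted p = 0.0458). Among the 7, standard replicate 2 and biotin only were higher than the other 5, which had at most 8 counts each.

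OS01T0124000, also listed with 1 transcript, had 313 counts in Circligase and 25, 85, 105, 79, 103, 68 and 7 in the 7 others. Circligase stood at 2081 CPM, 4.30 times the highest of the 7, which ran from 98.8 to 484.2 CPM. The log2 change was 2.75 (SE 0.484, edgeR adjusted p = 0.0458). Agarose was the lowest of the 7 and low RT denaturation the highest.

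OS02T0581100, listed with 1 transcript, had 711 counts in Circligase and 166, 227, 389, 252, 175, 214 and 93 in the others. Circligase stood at 4726 CPM and the 7 at 1102 ± 260.7 CPM (SD, n = 7). The log2 change was 2.10, with SE 0.377 and an edgeR adjusted p of 0.0458. The 7 libraries differed by less than a factor of 2 among themselves.

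OS05T0230700, listed with 3 transcripts, had 584 counts in Circligase and 114, 266, 296, 206, 224, 210 and 64 in the others. Circligase stood at 3882 CPM and the 7 at 963.4 ± 138.2 CPM (SD, n = 7). The log2 change was 2.01, with SE 0.353 and an edgeR adjusted p of 0.0458. Its transcripts did not move together. OS05T0230700-01 and OS05T0230700-02 had 343 and 229 counts in Circligase and at most 152 and 128 in any of the 7, while OS05T0230700-03 had 12 in Circligase and 4 to 23 in the 7. How reads that match several transcripts were counted is not given in the sources used here, so the split between transcripts is uncertain.

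The direction of all 5 was the same in every alternative in which they were tested. These alternatives reuse the same Circligase counts, which lay above all 7 on each locus, so the direction could hardly change. The call did change. OS03T0425800 did not pass the threshold in 2 of 16 alternatives, OS01T0124000 in 6 of 17, OS05T0230700 in 7 of 16, OS02T0581100 in 9 of 17 and OS01T0316800 in 9 of 15. The highest adjusted p were 0.562, 0.562, 0.695, 0.695 and 1, all in a fit of the 14 libraries against the standard protocol alone. Circligase also lay above all 14 readings of the 7 libraries, standard and custom primer, on each of the 5. In that common scaling OS03T0425800 stood at 855.3 CPM in Circligase and at most 258.3 CPM elsewhere, and OS02T0581100 at 4944 and 2546 CPM. These further readings are of the same libraries and add no replicates, and choosing the 5 for high values in Circligase favours this position.

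**Figure D5:**
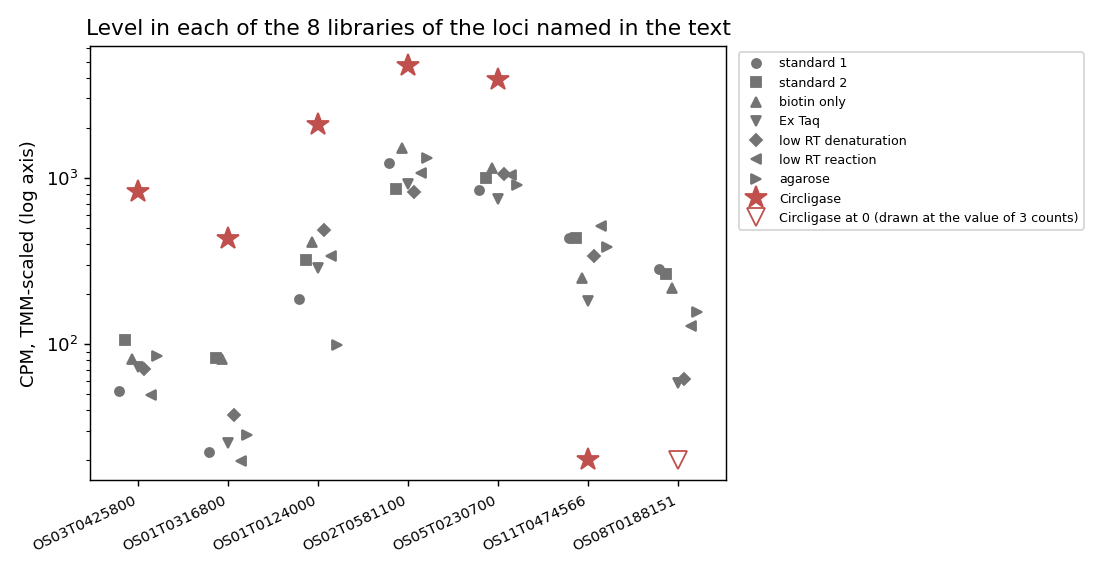
CPM, scaled by TMM factors, of the 5 loci called higher and 2 loci low in Circligase, on a log axis, 1 grey symbol per library of the 7 and Circligase in red. Circligase is above all 7 on the first 5 loci and below all 7 on the last 2, with OS08T0188151, at 0, drawn at the value of 3 counts (19.9 CPM).

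No locus was called lower by edgeR, and 2 are named here after their values were seen. OS11T0474566, the lower locus with the smallest p, had 3 counts in Circligase and 58, 116, 64, 50, 72, 103 and 27 in the 7 others. The lowest of the 7, Ex Taq at 181.2 CPM, was 9.09 times the Circligase value, with an exact 95% Poisson interval for the 3 counts that gives 3.11 to 44.1. The log2 change was -4.13 (SE 0.867, edgeR adjusted p = 0.105). OS08T0188151 was the 1 locus with no count in Circligase and at least 10 in each of the 7, with 38, 70, 56, 16, 13, 26 and 11 counts. Such loci numbered 1 for low RT reaction, 26 for agarose and 0 for the 5 others, so the count is not particular to Circligase. Taken at a floor of 3 counts in the Circligase library, OS08T0188151 was 8.36-fold lower than the mean of the 7. At the same floor it was 2.91-fold lower than the lowest of them. Neither is a lower bound, since the exact 95% Poisson interval for its 0 counts reaches 3.69 counts. That limit gives 2.36-fold below the lowest, without the counting error of the lowest library. Low counts limit such loci, and counting intervals do not cover PCR duplication.

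The 6 libraries outside the comparison give further values on these loci. The loci were chosen for a high or low value in Circligase, and that choice favours finding Circligase beyond the 6. On each of the 5 loci called, all 6 (standard protocol with DMS, and the biotin variation with and without it) lay below Circligase. For OS03T0425800 they ran from 10.8 to 59.5 CPM against 906.8 CPM in Circligase, in a scaling common to all 14 libraries. OS11T0474566 stood at 97.7 and 41.2 CPM in the untreated biotin variation, from 6 counts each, and at 22.1 CPM in Circligase. It stood at 162.7 and 139.6 CPM in the biotin variation with DMS and at 345.1 and 326.4 CPM in the standard protocol with DMS, so Circligase was the lowest of these. OS08T0188151, at 0 in Circligase, stood at 130.3 and 329.8 CPM in the untreated biotin variation, at 92.2 and 80.8 CPM with DMS, and at 65.5 and 93.7 CPM in the standard protocol with DMS. Both loci were thus lower in Circligase than in the 6 libraries, but the order of the 6 differed between them.

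The matched comparison is that with the 2 standard libraries, which share every labelled step but the ligation. Circligase lay above both on 1738 of the 5273 loci (33.0%) and below both on 2206 (41.8%), 74.8% in all. The 5 other libraries that were not standard lay outside this pair on 67.7% (biotin only), 69.9% (low RT reaction), 70.9% (low RT denaturation), 73.6% (Ex Taq) and 75.6% (agarose) of loci. The excess of loci below depended on the scaling, with 38.6% above and 38.2% below under RLE and 28.4% and 47.5% with totals. The share for Circligase under TMM scaling lay within the range of the 5 others, but not under the other scalings. Under RLE it was 76.7%, above the 68.6% to 73.8% of the 5 others. With totals it was 76.0%, above their 68.5% to 75.4%. With all 14 libraries in 1 edgeR fit and each kind given its own mean, 0 of 6628 loci were called between Circligase and the standard protocol, with 241 at an unadjusted p under 0.05 and 4 residual degrees of freedom. DESeq2 was not run on that fit.

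Across loci, Circligase and some other libraries were closer to standard replicate 2 than standard replicate 1 was to that library. For Circligase this held until 1 set of loci was left out. Pearson's r of log2(CPM + 1) over 5273 loci was 0.727 between Circligase and standard replicate 2, 0.693 between the standard replicates and 0.543 between Circligase and standard replicate 1. Over the 1249 loci at equal depth these were 0.702, 0.628 and 0.449. Without the loci counted more with the standard than with the custom primer, and at equal depth, they were 0.678, 0.748 and 0.567 over 1193 loci. The pair of standard replicates then came first of these. Over the 5273 loci, biotin only (0.759), low RT reaction (0.722) and Ex Taq (0.694) also lay closer to standard replicate 2. Low RT denaturation (0.676) and agarose (0.593) did not. At equal depth with the set, only low RT reaction (0.631) lay closer besides Circligase. Without the set as deposited (5166 loci), biotin only, low RT reaction, Ex Taq and low RT denaturation (0.742 to 0.801) exceeded the standard pair (0.740). Circligase (0.728) and agarose (0.624) did not. The median r of Circligase with the 7 others at equal depth was 0.544 with this set and 0.626 without it, and those of the 7 others ran from 0.543 to 0.618 and from 0.641 to 0.700. These are descriptions across loci of shared libraries, with no test.

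That set consists of loci at least 4 times higher (CPM + 1) with the standard than with the custom primer in at least 6 of the 7 libraries. It holds 148 loci, of which 107 were tested. It was chosen for high standard-primer values in the 7 libraries, so a lower value in Circligase is favoured by the choice. Circligase was at 0 on 34 of the 107, standard replicate 2 and low RT denaturation on 15 each, and the 5 others on 0 to 2. The median was 13.3 CPM in Circligase, 56.4 in standard replicate 2, 65.8 in low RT denaturation and 84.7 to 193.5 in the 5 others. Circligase lay below all 7 on 37 of the 107 and above all 7 on 3. These 37 are 3.98% of the 929 loci below the range, and the set is 2.03% of all loci tested. Without it, Circligase was outside on 1757 of 5166 loci, 891 above and 866 below.

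Leaving Circligase out showed what it shared with standard replicate 2. Among the 7 libraries alone, edgeR called 18 of 5207 loci lower in standard replicate 2 and 0 in each of the 6 others taken in turn, and with Circligase in the fit none of the 18 was called. All 18 belong to the set above. Their median was 3.76 CPM in standard replicate 2, 0 in Circligase and 176.4 to 407.7 CPM in the 6 others. Circligase played no part in this call and lay below the 6 others on 17 of the 18 and above them on 1. The 18 were called where the 6 others are high, which favours a lower value in a library left out. Circligase had no count on 13 of the 18, and standard replicate 2 on 8. The 0 calls for standard replicate 2 with Circligase among the rest therefore depend on its presence, and those for the 6 others do not.

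The identifiers give a few further features of the loci outside the range. Loci with predicted transcripts only (suffix -00) were 4.87% of those tested, 5.85% of those above and 6.03% of those below. Loci listed with 1 transcript were 49.6%, 51.4% and 54.5%, and they were 63.2% of the 76 loci 2-fold above and 43.2% of the 162 loci 2-fold below. By the chromosome number in the identifier, the share above ran from 12.8% on chromosome 6 to 17.6% on chromosome 8, and the share below from 16.0% on chromosome 11 to 19.1% on chromosome 5. These are descriptions, and no test was made.

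A second reading shows how far a position outside the range repeats for the 7 libraries, which were read with both primers. Among the 7, over 4652 loci, the loci outside the range with the standard primer were outside on the same side with the custom primer in 20.2% (standard replicate 1) to 49.2% (low RT reaction) of cases. Loci 2-fold beyond the range repeated less, on 0 of 19 in standard replicate 2, 1 of 118 in standard replicate 1, 1 of 27 in low RT denaturation, 23 of 611 in agarose, 5 of 34 in Ex Taq, 13 of 71 in low RT reaction and 6 of 30 in biotin only. How far the 2-fold loci of Circligase would repeat was not measured. Of the loci outside with the custom primer, 17.3% to 42.5% were outside on the same side with the standard primer. Circligase was read with the standard primer alone. Over both readings of the 7, it lay outside on 1222 of 5273 loci (23.2%). Among them were 584 of the 803 loci above and 618 of the 929 below. It was 2-fold above on 37 and 2-fold below on 100. A range over more readings is wider by construction, and the same count was not made for each of the 7. The 23.2% can thus not be set against the 32.8% over 1 reading of each.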

How the data were processed

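The samples are 8 Structure-seq2 libraries of rice shoots, per the labels. The authors deposited whole-number counts for each transcript, in 1 table per sequencing primer, whose columns are library letters per the file headers. Cutadapt and Bowtie2 were used, per the submitters' processing notes, which give no versions. Genome build, annotation and counting rule: not given in the sources used here. Columns outside the labels numbered 0.

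Counts were summed per locus, scaled by TMM factors and tested with edgeR 4.0.16 (R 4.3.3, limma 3.58.1) by the quasi-likelihood test, with Benjamini-Hochberg adjusted p at most 0.05, for Circligase and then for each of the 7 others against the rest, with 6 residual degrees of freedom. DESeq2 1.42.0 was an alternative. Thinning drew counts without replacement, once, and detected loci were computed by formula. The scripts were tested on simulated counts. Named loci were those called and outside the range with a mean of at least 20 counts on the higher side, ordered by change, at most 2 in each direction where names are lacking. The planned lists by annotation were not run, since 1 of 35679 loci matched the reference table. Libraries, lists and tests were chosen with earlier results of these data known. Alternatives were other scalings, filters, units and fits, leaving out each library in turn, thinning and a 2-fold margin. Totals of 50816 to 285714 counts limit the precision of single loci.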

Additional observations from a re-analysis of the deposited data

Results flagged for a closer look

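Dixon's criterion was applied to 13 sets of values over the 8 libraries (or over the 7 others, for the 5 loci called). In 4 sets, 1 library lay far from the rest. In all 4 it was the Circligase library, and the 4 measures come from the same counts, so they are not independent. The criterion's rate of about 1 of 20 sets holds for independent draws from 1 normal distribution. These libraries are of different kinds, so that rate does not measure chance here. They were 8492 loci detected at the common depth, 14.2% of counts in the 10 most abundant loci, 38.5% in the 100 most abundant, and 88 loci at least 2-fold beyond the range at equal depth. The part of the ligase and of the single library in these gaps cannot be told apart.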

How the results depend on the processing

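No paired analysis was possible because the Circligase library is 1 library and shares fewer than 2 replicate numbers with any other kind. The 5 edgeR calls for Circligase became 11 with RLE size factors, 3 with library totals, 111 with no filter on low counts (46 higher, 65 lower), 8 with a minimum of 50 counts, 20 over transcripts, 1 over loci listed with 1 transcript and 11 without the loci counted more with the standard primer. DESeq2 gave 46. A fit of 14 libraries gave 1 against the mean of 6 kinds, OS04T0543900, which is not among the 5, and 0 against the standard protocol. Leaving out 1 library gave 1 to 29. The highest count among the 7 others, 0, became 35 with no filter and 1 with DESeq2, and stayed at 0 in each fit that left out 1 of them with Circligase kept. With Circligase left out it became 18.

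The loci outside the range numbered 1732 for Circligase and 2106 for the highest of the others. A 2-fold margin gave 238 and 587, no filter 4432 and 5554, a minimum of 50 counts 346 and 390, loci listed with 1 transcript 820 and 1102, and thinning 483 and 401. These counts move with the number of loci tested by construction. Leaving out 1 library gave 1800 to 2126 for Circligase and 1758 to 2286 for the highest other. Thinning with a 2-fold margin gave 88 and 39, and thinning without agarose gave 1044 for the highest other and 16 calls for Circligase. Both of these, and the other scalings of the comparison with the standard pair, were chosen after seeing the data. Circligase had rank 3 with no filter, rank 1 when thinned or without agarose, and rank 2 in the other settings run. Its 8492 loci detected became 5607 over loci listed with 1 transcript, and 8492 to 12011 when 1 library was left out, the last at the greater common depth without agarose. Where not given here, the cause was not tested. The shallowest library, with 50816 counts, limits what the comparison at equal depth can show.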
